A study of Danio rerio with 2 samples.

Results

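The genes described here are 19 genes of cytosolic aminoacyl-tRNA synthetases and 16 genes of the amino acid stress response that is run by the transcription factor ATF4. They were taken by exact symbol from a list, and all 35 were found among the 34326 genes of the table and had a fold and a p. By role they are the 19 synthetases, 10 stress factors (6 transcription factors, and 4 effector and feedback genes) and 6 enzymes of amino acid synthesis and one-carbon metabolism. RNA was sequenced from Cldnk:GFP cells sorted by flow cytometry from larval zebrafish of the TL (Tupfel long fin) strain, 5 days post fertilization. The sorted cells are labelled as oligodendrocytes, the glia that wrap axons of the brain and spinal cord in myelin. The groups were rraga mutant and wild type, both sorted by the same reporter, with 1 record per genotype that merges 2 independent biological replicates per the labels. The sources used here give neither the mutant allele nor the number of larvae behind each sort. The authors deposited their comparison of the genotypes and no value per replicate, so neither a spread between replicates nor a depth can be given.

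Aminoacyl-tRNA synthetases join each amino acid to its transfer RNA, the step that loads the building blocks of protein synthesis. When amino acids run short, uncharged transfer RNA activates the kinase GCN2, which phosphorylates the initiation factor eIF2. Most translation then slows while that of the ATF4 messenger RNA rises, and in mammals ATF4 switches on amino acid transporters, biosynthetic enzymes, many synthetases and stress regulators such as CHOP. ATF4 is thus controlled largely in translation, which RNA levels do not show. RagA, the product of rraga, is a small GTPase at the lysosome that signals the presence of amino acids to the kinase mTORC1, and mTORC1 activity can itself raise ATF4 in mammalian cells.

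For each gene the authors' deposited table gives a log2 fold (rraga mutant over wild type, so a positive value is higher in the mutant), a p and an FDR p, which is the p adjusted over the whole table. A gene is said to have passed where the FDR p was under 0.05. The table also gives a level, which is whichever genotype mean is higher, in a normalized unit that is not named. Whether that unit is scaled by transcript length is not known, so a higher level in another gene need not mean more transcripts. A standard error on the log2 scale was derived from each deposited fold and p, assuming a normal test, and it need not carry the spread between replicates. In bulk RNA, fewer cells of a type and less RNA per cell cannot be told apart.

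None of the 35 genes passed the authors' threshold, where 0.221% of the 25757 genes with a p did, 0.132% higher and 0.0893% lower in the mutant. At an unadjusted p under 0.05, the authors' test found 3 of the 35, or 8.57%, against 9.66% of all genes with a p, which is near the background. These were ddit3 and psph, higher in the mutant as 4.43% of all genes were at that p, and ddit4, lower in the mutant as 5.24% were. Of the 35 genes 22 had a positive log2 fold and 13 a negative one, a share of 62.9% positive, against 51.0% of all genes and 62.3% of genes of level 10 or more. Their median log2 fold was 0.15, against 0.02 for all genes with a p and 0.15 for genes of level 10 or more. The mean over all genes with a p was -0.17, so that median and mean differ in sign.

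The 19 synthetase genes had small log2 folds on both sides of 0. Their log2 folds ran from -0.38 to 0.49 in the authors' deposited table, 10 were above 0 and 9 below, and none had an unadjusted p under 0.05. Their median was 0.08 and their mean 0.04, and relative to all genes in the same of 10 classes of level the median was -0.07. The 4179 genes within the same range of levels, 9.91 to 52.7, had a median of 0.16 and 61.9% of them were above 0. An unadjusted p under 0.05 in the authors' test was found for 8.16% of these 4179 genes. With 19 genes, a count of 0 is near that background.

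The highest value was that of kars, the lysyl-tRNA synthetase gene (chromosome 7, 67205943 to 67226483, GRCz11). Its log2 fold was 0.49 ± 0.52 (implied SE) at level 47.4, with p = 0.349 and an FDR p of 0.9999 in the authors' deposited table. The implied 95% interval of kars ran from -0.53 to 1.51. At the other end stood vars, the valyl-tRNA synthetase gene (chromosome 16, 10538868 to 10584912), with -0.38 ± 0.61 at level 12.1 and p = 0.533 in the authors' deposited table. On the signed linear scale of the authors' deposited table, where a negative value is lower in the mutant, kars stood at 1.40 and vars at -1.30. wars, for tryptophan, had the least precise value, 0.35 ± 0.79 at level 21.0 in the authors' deposited table, over a gene model of small extent on chromosome 17 (1507534 to 1509311).

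The other synthetases lay between these ends. In the authors' deposited table the log2 fold was 0.23 for gars (glycine), 0.17 for yars (tyrosine), 0.16 for dars (aspartate), 0.15 for mars (methionine), 0.13 for rars (arginine) and 0.12 for nars (asparagine). farsa and farsb encode the alpha and beta subunits of a single enzyme, the phenylalanyl-tRNA synthetase, and their log2 folds were nearly equal in the authors' deposited table, 0.08 at level 52.6 and 0.10 at level 31.6. Slightly below 0 in the authors' deposited table were aars (alanine) at -0.03, tars (threonine) at -0.03, eprs (glutamate and proline on 1 protein) at -0.06 and qars (glutamine) at -0.08. hars (histidine) had -0.10, cars (cysteine) -0.12, iars (isoleucine) -0.13 and sars (serine) -0.24 in the authors' deposited table. The identifier of hars carries the symbol HARS2, the mitochondrial form, in the supplied table of gene names, and it is counted here with the cytosolic synthetases as the deposited name has it. hars is also the 1 member on the chromosome of rraga, chromosome 14, at a distance of 6.65 Mb. Annotated regions that overlap qars, nars, tars and farsb had levels of 2.82 or less in the authors' deposited table. mars is overlapped on its own strand by fam210b, which had the higher level of 38.4.

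**Figure D1:**
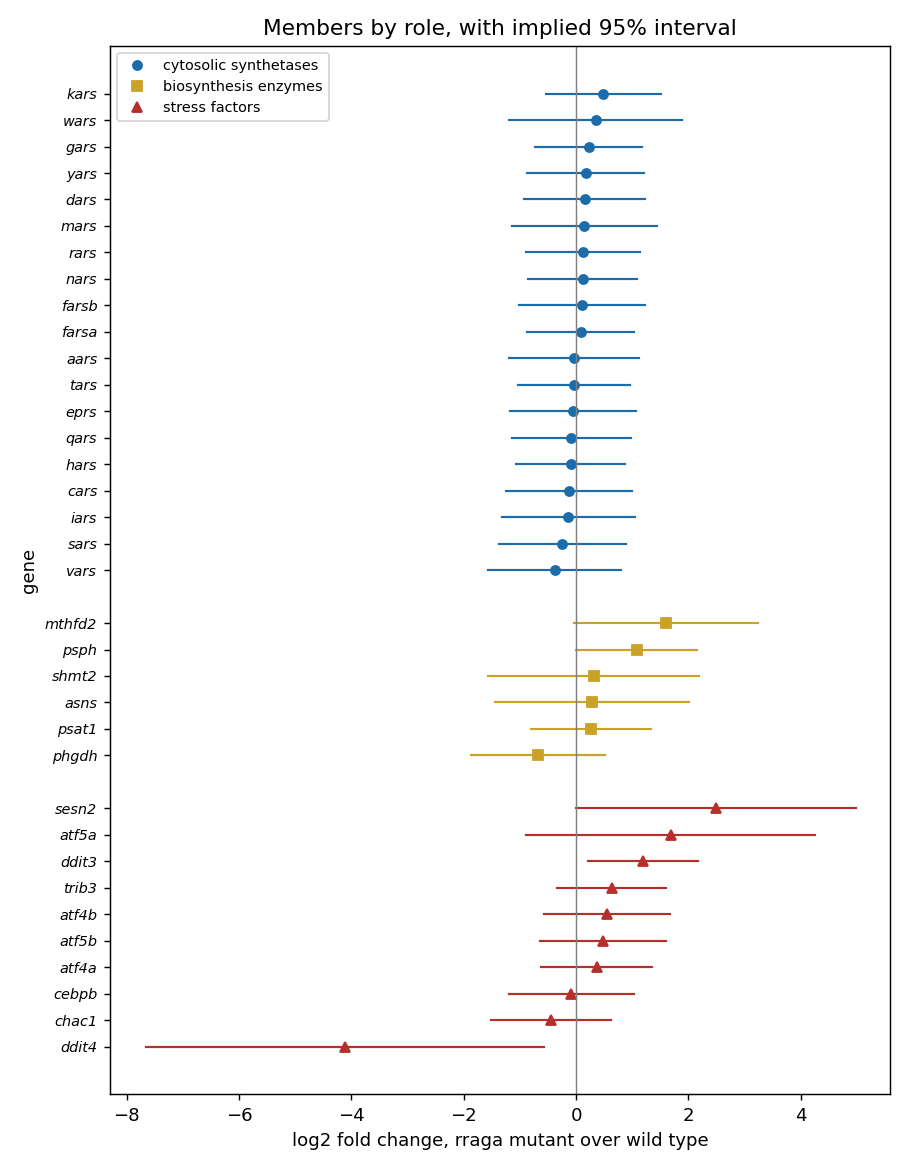
Log2 fold change (x axis, rraga mutant over wild type) of each of the 35 genes (y axis), by role, in descending order within a role; points are the deposited folds and bars the 95% intervals implied by the deposited p. The 19 synthetases lie between -0.38 and 0.49 and every one of their bars crosses 0, while the stress factors run from -4.11 to 2.49.

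The scatter of the synthetases was small beside the implied error. Their log2 folds had an SD of 0.21 across the 19 genes, while the median implied SE was 0.55 and the individual ones ran from 0.48 to 0.79. A synthetase of median precision needed a log2 fold of 2.17 to pass the authors' threshold, so differences well under that size could not have been called. Among the 4179 genes within their range of levels, 59.0% had an absolute log2 fold at or under 0.49, the largest of the synthetases, where all 19 synthetases did by construction. The median implied SE of those 4179 genes was 0.66, so they were less precise than the synthetases. The implied 95% intervals of the 19 genes together covered -1.56 to 1.90.

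The synthetases can be subdivided by structure, by complex and by known regulation. Class I and class II are the structurally unrelated families into which the enzymes fall. The 8 genes of class I enzymes had a median log2 fold of 0.02, and the 10 of class II a median of 0.09, and eprs, which holds an enzyme of each class, is in neither count. Several synthetases are held together in animal cells in a multisynthetase complex. The 7 listed genes of that complex had a median of 0.13, against 0.02 for the 12 genes outside it. The 11 synthetases that are often reported as ATF4 targets in mammals had a median of -0.03 with 5 above 0, and their mean was 0.04, whereas the 8 others had a median of 0.09 and 5 above 0. None of these differences between subsets was tested.

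The stress factors spread more widely than the synthetases, and their largest absolute log2 folds, of ddit4, sesn2 and atf5a, were at levels under 10. The gene with the smallest p among all 35 was also a stress factor. ddit3 (chromosome 6, 58921658 to 58924855) encodes CHOP, a transcription factor induced by ATF4 and linked in mammals to cell death under prolonged stress. Its log2 fold was 1.19 ± 0.50 at level 103, a 2.28-fold higher value in the mutant, with p = 0.0176 and an FDR p of 0.609 in the authors' deposited table. The implied 95% interval of ddit3 ran from 0.21 to 2.17, and a log2 fold of 1.97 would have been needed to pass. The synthetase gene mars is its neighbour, on the opposite strand 2153 bases away, and had 0.15 ± 0.66 in the authors' deposited table. The annotated region of fam210b overlaps ddit3, mars and shmt2. It lies on the strand opposite to ddit3 and shmt2, and on the same strand as mars. fam210b had a log2 fold of 0.53 at level 38.4 in the authors' deposited table. The sources used here do not say whether reads were counted by strand, so reads of the overlapping parts cannot be told apart.

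The genes of ATF4 and of its close relative ATF5 each exist as a pair in zebrafish, and all 4 had positive values that did not pass. atf4b had a log2 fold of 0.55 ± 0.57 at level 212 (p = 0.338) and atf4a 0.37 ± 0.50 at level 53.5 (p = 0.459) in the authors' deposited table. atf4a overlaps ap1m2 on the same strand, which had a log2 fold of 0.36 at level 28.8 in the authors' deposited table. For atf5b the log2 fold was 0.48 ± 0.57 at level 23.8 (p = 0.400), and for the weakly expressed atf5a it was 1.68 ± 1.31 at level 4.44 (p = 0.200), in the authors' deposited table. cebpb, a C/EBP transcription factor that can pair with ATF4, had -0.08 ± 0.57 at level 157 and p = 0.883 in the authors' deposited table. Among the 6 transcription factor genes the median was 0.51, and 5 were above 0. Of the genes within the range of levels of all stress factors 57.9% were above 0, with a median of 0.13.

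The effector and feedback genes of the response did not share a direction. trib3 encodes a pseudokinase that damps ATF4 activity, and had a log2 fold of 0.63 ± 0.50 at level 73.7 (p = 0.205) in the authors' deposited table. chac1, for an enzyme that degrades glutathione, had -0.44 ± 0.54 at level 101 (p = 0.413) in the authors' deposited table. trib3 and chac1 are both used as readouts of ATF4 activity in mammals, and their values lay on opposite sides of 0 with intervals that each included it.

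sesn2 and ddit4 encode inhibitors of mTORC1. Sestrin 2 binds leucine and acts on the GATOR complexes upstream of the Rag GTPases, while the ddit4 product, REDD1, acts through the TSC complex. sesn2 had a log2 fold of 2.49 ± 1.27 at level 4.76, with p = 0.0508 and an FDR p of 0.687 in the authors' deposited table. ddit4 had -4.11 ± 1.81 at level 2.52, with p = 0.0231 and an FDR p of 0.639 in the authors' deposited table. These were the highest and the lowest log2 fold of all 35 genes, in opposite directions, and both rest on low levels with wide intervals, from -0.01 to 4.99 for sesn2 and from -7.66 to -0.56 for ddit4. The median of the 4 effector genes was 0.09 and their mean -0.36, which differ in sign.

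**Figure D2:**
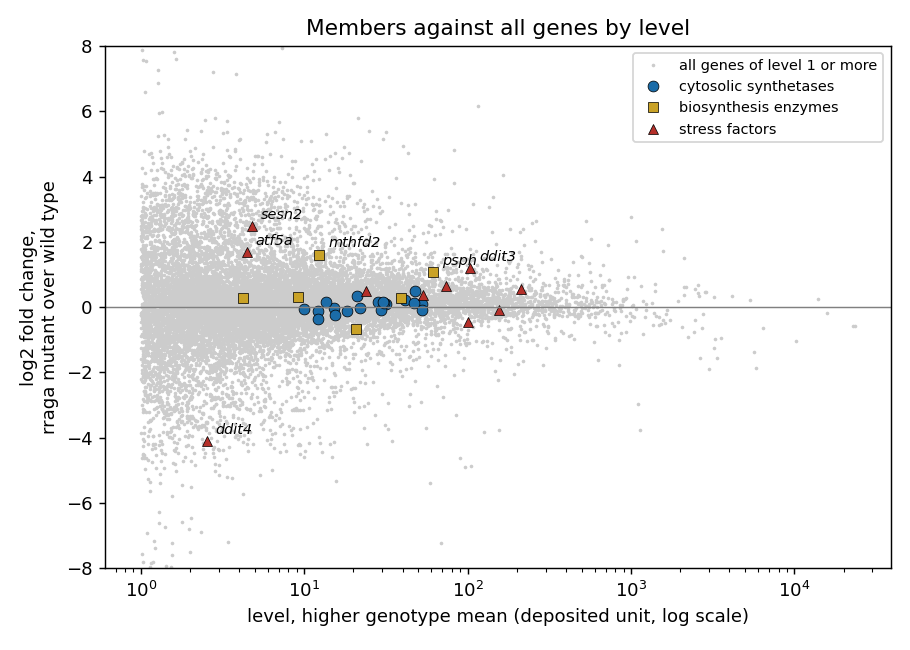
Log2 fold change (y axis, rraga mutant over wild type) against level (x axis, log scale, deposited unit) for genes of level 1 or more, with folds beyond 8 in either direction not shown; coloured symbols are the 35 genes by role, and those with an absolute log2 fold of 1 or more are named. sesn2, atf5a and ddit4 lie at levels under 5, where all genes scatter widely, whereas ddit3 and psph lie at levels of 103 and 61.4.

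The 6 enzyme genes cover asparagine synthesis, the serine pathway and the mitochondrial one-carbon cycle. Positive values were found for 5 of them, and the median log2 fold of all 6 was 0.30. Of the genes within the enzymes' range of levels 58.7% were above 0, with a median of 0.14. In the serine pathway the genes are, in the order of the reactions, phgdh, psat1 and psph. phgdh, for the first and committed enzyme, had a log2 fold of -0.68 ± 0.61 at level 20.6 (p = 0.269) in the authors' deposited table. psat1 had 0.27 ± 0.54 at level 39.2 (p = 0.623) in the authors' deposited table. psph, for the phosphatase of the last step (chromosome 15, 504337 to 510804), had 1.08 ± 0.55 at level 61.4, with p = 0.0484 and an FDR p of 0.685 in the authors' deposited table. The pathway thus showed values on either side of 0. The implied intervals of phgdh (-1.88 to 0.52) and psph (0.01 to 2.15) overlapped, which does not show that their values are alike. The difference between these genes was not tested. psph overlaps nipsnap2 on the opposite strand, which had a log2 fold of 0.14 at level 133 in the authors' deposited table.

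Serine feeds the one-carbon cycle of mitochondria through shmt2 and mthfd2. shmt2 had a log2 fold of 0.32 ± 0.96 at level 9.11 (p = 0.740) in the authors' deposited table. mthfd2 (chromosome 5, 68943906 to 68960202) had 1.61 ± 0.83 at level 12.3, with p = 0.0540 and an FDR p of 0.691 in the authors' deposited table. mob1a overlaps mthfd2 on the opposite strand and had a log2 fold of 0.90 at level 38.5 in the authors' deposited table. asns, the asparagine synthetase gene and a standard ATF4 target in mammals, had 0.28 ± 0.88 at level 4.23 (p = 0.750) in the authors' deposited table.

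Set side by side, the synthetases had a median log2 fold of 0.08 and the stress factors 0.51, a difference of -0.43 that is given as a description, with no test. The median implied SE of a single gene was 0.55 among the synthetases and 0.57 among the stress factors. No synthetase had an absolute log2 fold of 1 or more, against 16.4% of the genes within the synthetases' range of levels. The median implied SE was 0.66 for those genes and 0.85 for the genes within the stress factors' range of levels. Both sets were thus less precise than the members they are set beside, and shares of large folds are not matched for precision. Such a fold was reached by 4 of the 10 stress factors and by 46.6% of all genes with a p. Of those 4, sesn2, atf5a and ddit4 had levels under 5, and 24.4% of genes within the stress factors' range of levels reached such a fold. At level 10 or more it was 1 of 7 stress factors, or 14.3%, against 15.4% of all genes of that level, which is near the background. Beyond 0.49, the largest synthetase value, lay 6 of the 10 stress factors and 3 of the 6 enzymes, against 41.0% of the genes in the synthetases' range of levels and 49.3% of those in the stress factors' range, 2.52 to 212. Low levels were unevenly shared, with 3 stress factors, 2 enzymes and 1 synthetase under level 10. Among members of level 10 or more the SD of the log2 fold was 0.21 over 18 synthetases and 0.52 over 7 stress factors, which ran from -0.44 to 1.19. All genes of level 10 or more had an SD of 0.94 over log2 folds from -12.0 to 12.0, and those of level 100 or more an SD of 0.74. A few far values raise an SD, so these SDs do not show that the 7 stress factors spread less than other genes. Of the stress factors 7 of 10 were above 0, against 57.9% of genes in their range of levels, whose median was 0.13. At level 10 or more 5 of 7 stress factors were above 0, against 62.3% of all genes of that level.

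**Figure D3:**
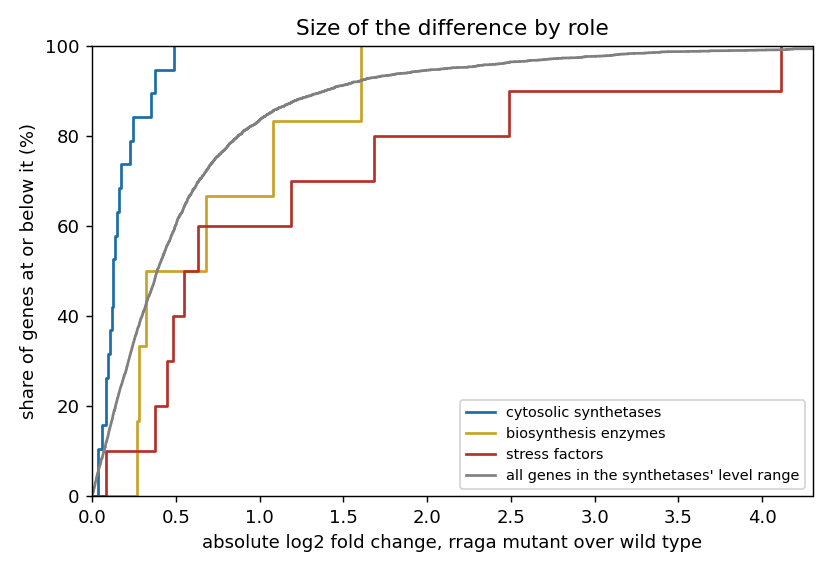
Share of genes (y axis, percent) whose absolute log2 fold change between rraga mutant and wild type is at or below the value on the x axis, for the synthetases, the enzymes, the stress factors and the 4179 genes within the synthetases' range of levels. The synthetase curve reaches its top at 0.49, and 4 of the 10 stress factors lie at 1 or beyond, 3 of them at levels under 5, below the range of the grey curve. Most of the other stress factors lie above that range of levels, so the grey curve is not matched to them.

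Beyond the 35 genes, 5 lists of the same pathway held 89 genes with a fold and a p. None of them passed the authors' threshold, where 0.221% of all genes did, and 5 had an unadjusted p under 0.05, or 5.62%, against 9.66% of all genes. Their median log2 fold was 0.11, with 50 above 0 and 39 below. The share above 0 was 56.2%, against 51.0% of all genes with a p and 62.3% of genes of level 10 or more.

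The eIF2 kinases, phosphatase and sensors (17 genes, median 0.11) hold the feedback loop that restores translation after ATF4 has acted. In mammals its inducible part is GADD34, the product of PPP1R15A, which brings a phosphatase to eIF2. ppp1r15a had a log2 fold of 1.08 ± 0.54 at level 80.9 (p = 0.0447, FDR p = 0.685) in the authors' deposited table. Its relative ppp1r15b had 2.95 ± 1.34 at level 4.23 (p = 0.0279, FDR p = 0.662) in the authors' deposited table. The kinase gene eif2ak3, for the endoplasmic reticulum sensor PERK, had 0.30 ± 1.14 at level 2.17, and eif2ak1 had 0.80 ± 0.84 at level 7.63, in the authors' deposited table. eif2ak4, the gene of GCN2, was not matched to a row and is not analysed here. The genes of highest level on this list, eif2s2 and ppp1r15a, both lay above 0 in the authors' deposited table, eif2s2 at 0.45. Others lay below 0 in that table, with -0.68 for eif2ak2, -0.62 for gcn1 and -1.35 for impact, all at levels under 10. Of the 17 genes 11 lay above 0 and 6 below. That is 64.7% above 0, against 51.0% of all genes with a p and 62.3% of genes of level 10 or more. An unadjusted p under 0.05 in the authors' test was found for 11.8% of the list, against 9.66% of all genes with a p.

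Other ATF4 targets and partners (36 genes) had a median log2 fold of 0.19, with 21 above 0. That is 58.3%, between 51.0% of all genes with a p and 62.3% of genes of level 10 or more. gadd45aa, of a stress and DNA damage family, had 1.17 ± 0.52 at level 85.2 (p = 0.0235, FDR p = 0.640) in the authors' deposited table. stc2a, a stanniocalcin gene, had 4.22 ± 1.48 at level 2.04 (p = 0.00438, FDR p = 0.413), while its paralog stc2b had -0.40 ± 0.51 at level 79.6, in the authors' deposited table. The members of highest level were nupr1 at 0.48 and cebpd at 0.14 in the authors' deposited table. The 13 amino acid transporter genes had a median of 0.19. None had an unadjusted p under 0.05 in the authors' test, where 9.66% of all genes with a p did, and their median implied SE was 0.82. The pair of highest level among them, slc3a2b and slc7a3a, lay on either side of 0 in the authors' deposited table, with 0.66 for slc3a2b and -0.56 for slc7a3a.

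Mitochondrial synthetases and their amidotransferase subunits (18 genes) had a median log2 fold of -0.24, with 6 above 0 and 12 below. That is 33.3% above 0, against 51.0% of all genes with a p. Their levels ran from 1.05 to 23.3, with 1 gene at level 10 or more, and their median implied SE was 1.12. An unadjusted p under 0.05 in the authors' test was found for 5.56% of them, against 9.66% of all genes with a p. fars2, for the mitochondrial phenylalanyl enzyme, had -3.18 ± 1.50 at level 1.41 (p = 0.0337, FDR p = 0.677) in the authors' deposited table. The 2 of highest level, wars2 and the gene matched to gatc (si:rp71-1c23.3), had -1.47 for wars2 and -0.05 for the other in the authors' deposited table. The 5 other cytosolic genes of this machinery had a median of 0.27. larsb, for leucine, had -0.28 ± 0.64, and the scaffold genes aimp1 and aimp2 of the multisynthetase complex had 0.00 and 0.27, in the authors' deposited table. eef1e1, for a further component of that complex, had 1.01 ± 0.85, and xpot, for the exporter of transfer RNA from the nucleus, 1.34 ± 0.87, both with a p above 0.05 in the authors' deposited table.

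**Figure D4:**
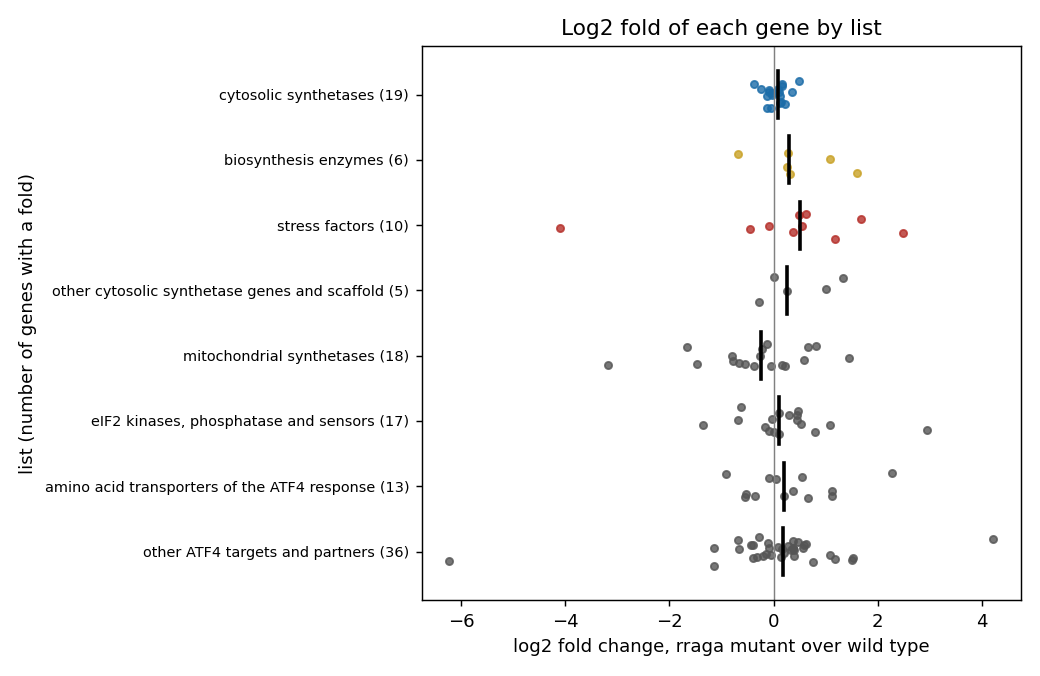
Log2 fold change (x axis, rraga mutant over wild type) of every gene on each list (y axis, with the number of genes), as points spread vertically for visibility, with the median as a black bar. The synthetases cluster between -0.38 and 0.49, and every median lies between -0.24 and 0.51. The stress factors and the other lists spread further to both sides, except the other cytosolic synthetase genes and scaffold, whose lowest value is -0.28.

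In the sorted cells all 9 oligodendrocyte markers were detected, at levels of 74.6 to 5321, with 1.98% of the summed level of all genes. That share was below those of the pancreas and liver markers given next. Each share sums the higher genotype mean of every gene, so it is not the make-up of either genotype's cells. Of the 9 markers 6 were lower in the mutant, with mpz past the authors' threshold. Values of markers of other tissues differed in direction between tissues. For the counts below, 51.0% of all genes with a p lay above 0, or 62.3% at level 10 or more. The authors' threshold was passed by 0.221% of all genes with a p. Exocrine pancreas, a tissue of very high protein synthesis, had 16 markers with 6.47% of the summed level of all genes, of which 15 were lower in the mutant, with a median log2 fold of -0.66 and none past the threshold. All 7 liver markers, with 10.6% of the summed level, were lower, with a median of -0.57 and none past the threshold, and the 8 erythrocyte markers all lay above 0 (median 1.75), 1 of them past the threshold. Of 11 dissociation and stress genes 10 lay above 0 (median 0.45), and 4 heat shock genes passed. Macrophage markers (3 of 7 higher) and neuron markers (4 of 7 higher) were mixed, and none of them passed. No matched marker of these lists was listed at 0, and neither genotype's own summed level is given. Their part in the values of the 35 genes was not tested. rraga itself had a log2 fold of 0.44 ± 0.61 at level 33.1 in the authors' deposited table, which does not check the genotype labels, since a mutant allele can still be transcribed.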

How the data were processed

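RNA from sorted Cldnk:GFP cells of rraga mutant and wild-type larvae was sequenced, with 1 record per genotype. The build was GRCz11 per the submitters' processing notes. The sources used here do not give the aligner, counter, normalization or test. The deposited table holds, per the file headers, a maximum group mean (a normalized signal of unnamed unit, called the level here), a log2 fold, a signed fold (a score that is negative for falls) and the authors' p-value with its FDR and Bonferroni adjustments. 8569 genes of level 0 have no fold or p, and 25757 remained. The direction rests on the sheet title. No counts are given, so depth is unknown.

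The authors' FDR p under 0.05 was used as planned for such a table. It matched a Benjamini-Hochberg adjustment over all 34326 genes to within 9.89e-17 among called genes. For the implied SE, the absolute log2 fold was divided by the two-sided normal deviate of its p; the fold needed to pass uses the largest p among the 57 called genes, 7.92e-05. The calculations were tested on simulated data and run with Python 3.11.15, pandas 2.3.3 and scipy 1.17.1. Members and lists were chosen with earlier results of these data known. Every member is named. Other lists give genes with an unadjusted p under 0.05, the 2 of highest level and a few added after their values were seen. These are eif2ak1, eif2ak2, eif2ak3, gcn1, impact, stc2b, larsb, aimp1, aimp2, eef1e1, xpot and genes overlapping members. Of 170 pathway and marker names, 154 were matched (148 by name, 1 in another case and 5 by Ensembl identifier), 11 were not and 5 shared a row already listed. Alternatives were other adjustments, filters on level, centring on genes of like level (10 classes) and weighted means.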

Additional observations from a re-analysis of the deposited data

How the results depend on the processing

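No member passed under any of the 5 other adjustments or thresholds tried. The authors' FDR p under 0.01, an added log2 fold of at least 1 and the authors' Bonferroni p are stricter than the main rule. Their count of 0 was thus fixed in advance. The Benjamini-Hochberg adjustments over genes of level 1 or more and of level 10 or more could have given a higher count. The latter left out the members under level 10. In the authors' test 3 members had an unadjusted p under 0.05. The direction of each single gene is the authors' and cannot change under these settings. The median log2 fold of the synthetases, 0.08, was -0.0737 when each fold was taken relative to the median of all genes in its class of level (10 classes of equal size), 0.0452 as a mean weighted by the inverse square of the implied SE, and 0.0245 with larsb added, which was chosen after seeing the data. Its sign is thus not settled. The median of the enzymes, 0.30, was 0.67 among the 4 of level 10 or more, since asns and shmt2 dropped out. The level is the higher genotype mean, so mthfd2 (level 12.3, 3.04-fold higher in the mutant) passed that filter only through its mutant mean. The rise to 0.67 thus rests in part on how the filter selects genes. The stress factor median, or mean under the weighting, lay between 0.36 and 0.51 across the filters on level, the centring and the weighting. Across the same settings the difference between synthetases and stress factors lay between -0.43 and -0.39, and it was not computed with larsb added. The unweighted mean of the stress factors was 0.28, against 0.04 for the synthetases. No paired analysis was possible because the table holds no value per replicate, and leaving out a replicate was likewise not run. The unknown depth limits all values, those of genes under level 10 most.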
